A study of Mus musculus with 9 samples.

Results

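The 3 libraries of replicate number 3 (R3) were compared with the 6 libraries of replicate numbers 1 and 2 (R1 and R2), out of 9 in all, with the knockdown group held fixed. The libraries were chosen by the ending of their titles, and the contrast was singled out because earlier results of the same libraries had shown R3 to stand apart. Each group of E14 mouse embryonic stem cells, a line derived from the inner cell mass, gave 1 library to R3 and 2 to R1 and R2. All cells carried a stably integrated pLKO.1 lentivirus, had been selected in 2 ug/ml puromycin, and grew on gelatin in medium with 10% serum and 1000 U/ml of leukaemia inhibitory factor (LIF), which holds back differentiation. The Fam60a knockdown expressed a hairpin RNA against Fam60a (Sinhcaf in the GENCODE M21 annotation), the Sin3a knockdown one against Sin3a, and T2SC was taken by elimination as the scrambled hairpin control. Fam60a and Sin3a are subunits of one histone deacetylase complex. The labels call the replicates biological and say that control cells were made in parallel, but do not say what equal numbers share, so that transduction, passage, RNA extraction, library preparation and sequencing cannot be told apart as sources of an R3 difference. They do not say either whether the cells of a culture came from 1 clone.

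Cultures of embryonic stem cells in serum and LIF are mixtures. Most cells hold the pluripotency factors Pou5f1, Sox2 and Nanog, while a minority may turn on Gata6 and Gata4 and move towards primitive endoderm, the lineage that gives the yolk sac endoderm and lays down basement membrane, or pass briefly through a state with transcripts of the 2-cell embryo. In bulk RNA, fewer cells of a type and less RNA per cell cannot be told apart.

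Library depth was 6344213 to 7674887 reads in the Fam60a group, 6072157 to 6896141 in T2SC, and 6560637, 5511453 and 2607872 in Sin3a R1, R2 and R3. The last library stood apart. It held 90 reads of mitochondrially encoded genes, against 6268 to 7118 in each other library, and its counts went with the GC content of the exons. Its difference from Sin3a R1 and R2 had a median of -1.23 on the log2 scale in the lowest of 10 classes of GC content and 0.79 in the highest. The R3 differences of T2SC and of the Fam60a knockdown had medians between -0.0425 and 0.0187 in all 10 GC classes, so each result is given with 9 libraries and with 8, without Sin3a R3. Fam60a transcripts stood at 5.06 to 6.54 CPM (the part of a library's reads that fell on a gene, after TMM scaling) in the Fam60a knockdown and 13.1 to 18.7 CPM in the other groups. Sin3a stood at 110 to 136 CPM in its knockdown and 207 to 311 CPM elsewhere. Neither target passed the threshold for R3 against R1 and R2 with 9 or with 8 libraries.

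**Figure D1:**
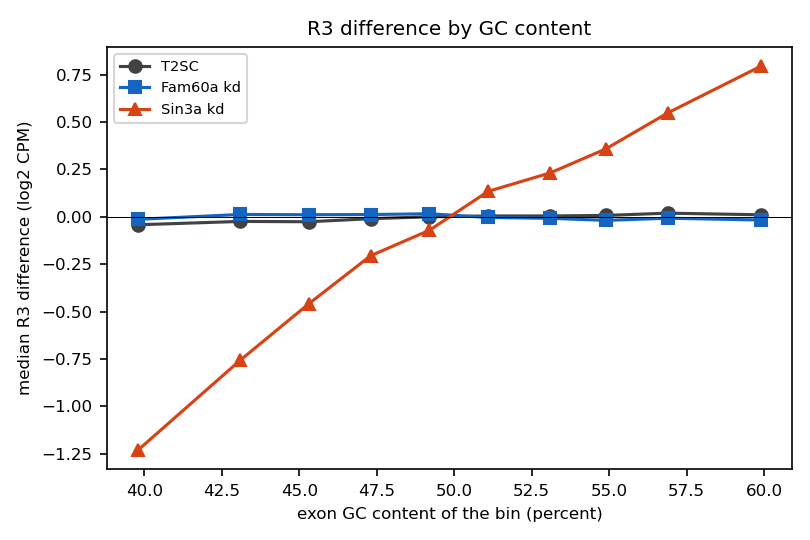
Median difference of R3 from the mean of R1 and R2 (log2 CPM) against the exon GC content (percent) of 10 classes of genes, 1 line per group. The Sin3a line runs from -1.23 to 0.794, while T2SC and the Fam60a knockdown stay between -0.0425 and 0.0187.

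A difference here is the log2 coefficient of R3 against R1 and R2 in an edgeR model with the group as block, with its standard error (SE), and the threshold is a Benjamini-Hochberg adjusted p of 0.05 over the 14465 genes tested. Since the contrast was itself chosen from these data, passing the threshold is used as a label for genes and not as evidence that R3 differs. With 9 libraries 306 genes (2.12%) were higher in R3 and 71 (0.491%) were lower, or 377 in all (2.61%), 230 and 31 of them by at least 2-fold. With 8 libraries 615 (4.25%) were higher and 392 (2.71%) lower, or 1007 in all (6.96%), and 293 of the higher and 70 of the lower genes were labelled in both fits. The replicate numbers paired the samples, and with the replicate number as a block of 3 levels the counts were 197 higher and 27 lower with 9 libraries and 1198 (8.28%) and 1251 (8.65%) with 8. The counts moved when any 1 library was left out. The genes higher numbered 184 without Fam60a R1, 140 without Fam60a R2, 230 without Fam60a R3, 177 without Sin3a R1, 175 without Sin3a R2, 126 without T2SC R1, 174 without T2SC R2 and 128 without T2SC R3. The genes lower numbered, in the same order, 15, 8, 6, 11, 10, 8, 8 and 38.

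Primitive endoderm genes of the membrane and the secretory pathway formed the list with the highest median. Of its 17 genes tested, 9 were higher and 0 lower with 9 libraries, where 2.12% and 0.491% of all genes were. With 8 libraries 12 and 0 were, where 4.25% and 2.71% of all genes were. The median difference of the list was 1.22 (1.57 with 8 libraries), against -0.04 (0.00) over all genes. This list and the label of the comparison had been chosen with results of these libraries known.

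To show what lies before the start sites of genes that moved together, 3 promoters are printed from RefSeq (GRCm38.p6). These genes were picked for their values, and they are Krt8 and Krt18, the keratins that pair into the first filaments of embryonic epithelia, and Fgb, the beta chain of fibrinogen, a clotting protein secreted by the liver. Each is the 250 bases before the annotated start, 5′ to 3′ on the gene's strand. Capitals mark AGATAA or TGATAA, on either strand, which are among the hexamers that GATA factors such as Gata6 and Gata4 recognise. Other GATA-type hexamers were not marked or counted, and the Fgb window holds tgatag. The Krt8 window is chr15:102004343-102004592 (minus strand), that of Krt18 is chr15:102027966-102028215 (plus strand) and that of Fgb is chr3:83049864-83050113 (minus strand).
Krt8: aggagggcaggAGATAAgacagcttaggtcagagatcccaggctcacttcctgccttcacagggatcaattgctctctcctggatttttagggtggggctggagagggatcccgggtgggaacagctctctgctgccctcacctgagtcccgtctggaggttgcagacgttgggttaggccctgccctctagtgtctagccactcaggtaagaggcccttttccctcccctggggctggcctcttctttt
Krt18: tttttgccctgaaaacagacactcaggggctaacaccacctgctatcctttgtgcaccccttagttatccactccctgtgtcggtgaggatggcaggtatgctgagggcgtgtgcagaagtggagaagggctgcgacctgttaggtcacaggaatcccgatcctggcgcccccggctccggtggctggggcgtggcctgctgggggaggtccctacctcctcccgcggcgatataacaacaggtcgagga
Fgb: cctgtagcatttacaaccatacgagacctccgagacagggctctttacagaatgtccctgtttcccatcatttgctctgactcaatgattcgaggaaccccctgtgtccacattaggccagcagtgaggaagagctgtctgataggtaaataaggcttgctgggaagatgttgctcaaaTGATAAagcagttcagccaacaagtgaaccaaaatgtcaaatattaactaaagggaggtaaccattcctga
The windows of Krt8 and Fgb hold 1 match each and that of Krt18 holds 0. Most windows searched for other named genes higher in R3 hold none. RefSeq gave 653 promoters for 478 of the 615 genes higher with 8 libraries, and 10.1% of them hold a match, against 9.17% of the 13855 promoters of all genes tested. For the 306 genes higher with 9 libraries the share was 11.7% of 325 promoters, and for the 392 genes lower with 8 libraries 6.15% of 390. A match is a description of these letters and not a binding site. Fgb measured 0.326, 0.867 and 5.81 CPM in T2SC, 1.06, 2.57 and 9.01 CPM in the Fam60a knockdown, and 2.13, 1.30 and 5.69 CPM in the Sin3a knockdown (R1, R2 and R3), and R3 was above the other libraries in all 3 groups.

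The transcription factors of primitive endoderm come first by role. Gata6, which starts the lineage, stood at 57.0, 61.0 and 137 CPM in T2SC R1, R2 and R3, at 195, 171 and 211 CPM in the Fam60a knockdown, and at 208, 195 and 221 CPM in the Sin3a knockdown. R3 was the highest library in each group, but the gap was wide only in T2SC, where R3 remained below all 6 knockdown libraries. The difference of 0.54 ± 0.19 (SE), or 0.70 ± 0.21 with 8 libraries, did not pass the threshold (edgeR adjusted p = 0.192 and 0.103).

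Gata4, its partner in endoderm, separated the numbers more clearly. It measured 39.3, 29.6 and 143 CPM in T2SC, 129, 94.7 and 195 CPM in the Fam60a knockdown and 149, 109 and 191 CPM in the Sin3a knockdown (R1, R2 and R3). R3 was the highest in each group, and T2SC R3 lay within the range of the R1 and R2 libraries of the knockdowns. Its difference was 1.17 ± 0.27, or 1.41 ± 0.30 with 8 libraries, and it passed the threshold with 8 libraries but not with 9, nor with 8 and the replicate number as a block (edgeR adjusted p = 0.0742).

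Sox17, an HMG box factor needed for definitive and extraembryonic endoderm, measured 19.2, 21.1 and 73.9 CPM in T2SC, 86.1, 66.2 and 116 CPM in the Fam60a knockdown and 88.7, 63.3 and 186 CPM in the Sin3a knockdown. R3 was again the highest of each group, and the difference of 1.27 ± 0.22 passed with 9 libraries, while 1.20 ± 0.29 with 8 did not. With the replicate block Sox17 passed with neither 9 nor 8 libraries (edgeR adjusted p = 0.0523 and 0.118). Foxq1, a forkhead factor, measured 33.4, 27.6 and 112 CPM, then 113, 78.7 and 169 CPM, then 105, 70.2 and 219 CPM in the same order of groups, and passed in both fits (1.35 ± 0.22 and 1.33 ± 0.29), but not with 8 libraries and the block (edgeR adjusted p = 0.0579). Cited1, a coactivator, stood at 1.95, 2.6 and 18 CPM in T2SC, 7.7, 7.06 and 14.7 CPM in the Fam60a knockdown and 11.4, 9.10 and 83.3 CPM in the Sin3a knockdown, and passed in both fits, with 2.39 ± 0.36 and 1.91 ± 0.38. For Foxq1 and Cited1 the R3 libraries were above R1 and R2 of their own group.

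Hnf4a, a nuclear receptor of visceral endoderm and liver, measured 19.7, 16.3 and 44.7 CPM in T2SC, 28.5, 22.2 and 59.1 CPM in the Fam60a knockdown, and 28.7, 17.5 and 32.1 CPM in the Sin3a knockdown. R3 was highest in each group, narrowly in the last, and Hnf4a passed with 8 libraries (1.27 ± 0.18) but not with 9 (1.03 ± 0.22). Of the 13 factors tested, 3 were higher and 0 lower with 9 libraries and 8 and 0 with 8 (5 and 0 with 8 libraries and the replicate block), and R3 lay above both R1 and R2 in all 3 groups for 9. Over all genes 11.5% lay above in all 3 groups. The share of all genes called higher was 2.12% with 9 libraries, 4.25% with 8 and 8.28% with 8 and the block. The median of the factors was 1.82 in T2SC, 0.64 in the Fam60a knockdown and 0.51 with Sin3a lowered. Summed over the 13 factors, the level was 647, 588 and 1140 CPM in T2SC, 1210, 1000 and 1520 CPM in the Fam60a knockdown and 1270, 1060 and 1710 CPM in the Sin3a knockdown. R3 had the highest sum of each group, and T2SC R3 reached the range of knockdown R1 and R2.

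**Figure D2:**
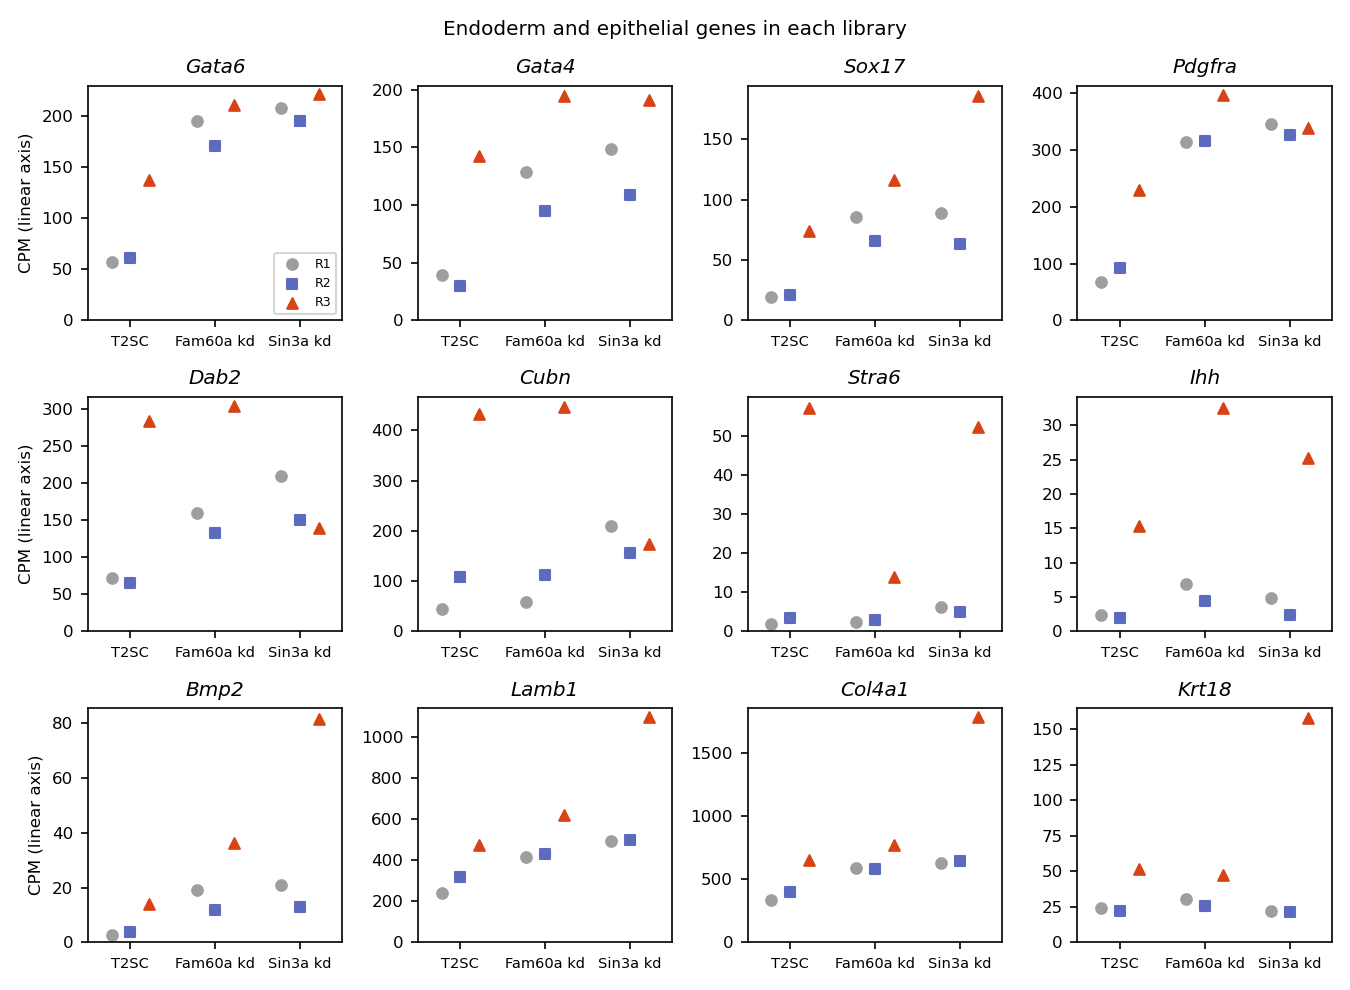
Level (CPM, linear axis from 0) of 12 genes in each of the 9 libraries, with circles for R1, squares for R2 and triangles for R3, by group. Gata6 is set apart in T2SC R3 (137 against 57.0 and 61.0 CPM) and only narrowly in the knockdowns, whereas Ihh, Stra6 and Bmp2 are highest in R3 of every group, and Dab2 and Cubn are not high in Sin3a R3.

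Among signalling ligands and receptors, the differences were large for Ihh and Pth1r and smaller for Bmp2 and Pdgfra. Ihh (ENSMUSG00000006538, GRCm38 chromosome 1, 74945315 to 74951672, minus strand), the hedgehog ligand that visceral endoderm secretes, measured 2.44, 2.02 and 15.3 CPM in T2SC, 6.95, 4.49 and 32.6 CPM in the Fam60a knockdown, and 4.88, 2.41 and 25.2 CPM in the Sin3a knockdown. No R1 or R2 library of any group reached the lowest R3 value, and the difference was 2.67 ± 0.24 with 9 libraries and 2.63 ± 0.26 with 8. Pth1r, the receptor of parathyroid hormone and an early marker of parietal endoderm, measured 13.5, 12.7 and 100 CPM in T2SC, 27.9, 23.6 and 101 CPM in the Fam60a knockdown, and 34.9, 18.2 and 203 CPM in the Sin3a knockdown. These 3 R3 libraries did not overlap the other 6 either (2.62 ± 0.24 and 2.44 ± 0.27). Bmp2, a bone morphogenetic protein, measured 2.77, 3.90 and 13.9 CPM in T2SC, 19, 11.9 and 36.4 CPM in the Fam60a knockdown, and 21, 12.8 and 81.7 CPM in the Sin3a knockdown. T2SC R3 lay below 2 of the 4 knockdown libraries of R1 and R2, so that Bmp2 separated the numbers within groups only (1.85 ± 0.27 and 1.56 ± 0.29). Pdgfra, a receptor that marks primitive endoderm, measured 68.3, 91.7 and 229 CPM in T2SC, 313, 316 and 396 CPM in the Fam60a knockdown, and 346, 327 and 339 CPM in the Sin3a knockdown. It did not pass in either fit (0.66 ± 0.25 and 0.92 ± 0.25), and like Gata6 it was far apart only in T2SC R3.

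Genes of uptake and transport did not all follow one pattern across the groups. Stra6 (ENSMUSG00000032327, chromosome 9, 58063788 to 58153996, plus strand), the membrane receptor that takes up retinol, measured 1.95, 3.33 and 57.2 CPM in T2SC, 2.42, 2.82 and 13.9 CPM in the Fam60a knockdown, and 6.25, 5.01 and 52.4 CPM in the Sin3a knockdown. All 3 R3 libraries were above the other 6, and the difference was 3.40 ± 0.33, or 3.54 ± 0.39 with 8 libraries. Amn, which anchors the endocytic receptor cubilin in the membrane, measured 15.3, 19.5 and 87.0 CPM, then 52.1, 53.1 and 102 CPM, then 38.3, 25.6 and 169 CPM in T2SC, the Fam60a and the Sin3a knockdown. It likewise did not overlap (1.93 ± 0.26 and 1.62 ± 0.30). Cubn, cubilin itself, measured 43.7, 109 and 433 CPM in T2SC, 58.8, 112 and 446 CPM in the Fam60a knockdown, and 210, 155 and 174 CPM in the Sin3a knockdown. Here Sin3a R3 lay between R1 and R2, and Cubn passed with 8 libraries only (2.44 ± 0.35). Dab2, an adaptor for the same endocytic receptors, measured 71.4, 64.8 and 284 CPM, then 160, 132 and 304 CPM, then 209, 150 and 139 CPM. It was highest in R3 of the first 2 groups and lowest in Sin3a R3, and passed with 8 libraries only (1.57 ± 0.24).

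Extracellular matrix genes of parietal endoderm, which assemble the basement membrane, showed smaller differences. Lamb1, the laminin beta 1 chain, measured 241, 321 and 477 CPM in T2SC, 418, 432 and 620 CPM in the Fam60a knockdown, and 495, 499 and 1100 CPM in the Sin3a knockdown. R3 was highest in each group, and Lamb1 passed in both fits (0.82 ± 0.13 and 0.66 ± 0.10). Col4a1, a chain of type IV collagen, measured 332, 395 and 652 CPM, then 592, 577 and 768 CPM, then 625, 645 and 1780 CPM in the same order. Its difference was 0.93 ± 0.17, or 0.63 ± 0.10 without Sin3a R3, where it was highest of all, and it did not pass with 9 libraries and the replicate block (edgeR adjusted p = 0.0753). The partner chain Col4a2 passed without the block (1.16 ± 0.19 and 0.88 ± 0.18) but with it in neither fit (edgeR adjusted p = 0.0548 with 9 libraries and 0.0899 with 8). The prolyl hydroxylase P4ha2, which modifies collagen, passed in all 4 of these fits (1.21 ± 0.16 and 1.05 ± 0.16 without the block). Of 17 genes tested in this list, 5 were higher and 0 lower with 9 libraries, where 2.12% and 0.491% of all genes were. With 8 libraries 6 and 0 were, where 4.25% and 2.71% of all genes were. The median of the list was 0.48 (0.32 with 8). With the replicate block 3 were higher and 0 lower with 9 libraries. With 8 libraries and the block 8 and 0 were, where 8.28% and 8.65% of all genes were. In that last fit 7 of these 17 genes were also higher in R2 than in R1 and 0 were lower, where 8.91% of all genes were higher in R2. In the list of visceral endoderm and lipoproteins, 8 genes were tested and 1 was higher and 0 lower (1 and 1 with 8 libraries). Its members Afp, with 0 to 3 reads per library, and Ttr, with 1 to 4 reads in R1 and R2 and 5 to 19 in R3, did not pass the filter, and neither did Apoa1, Apoa2, Apoa4, Apob, Alb, Serpina1b and Slc2a2.

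**Figure D3:**
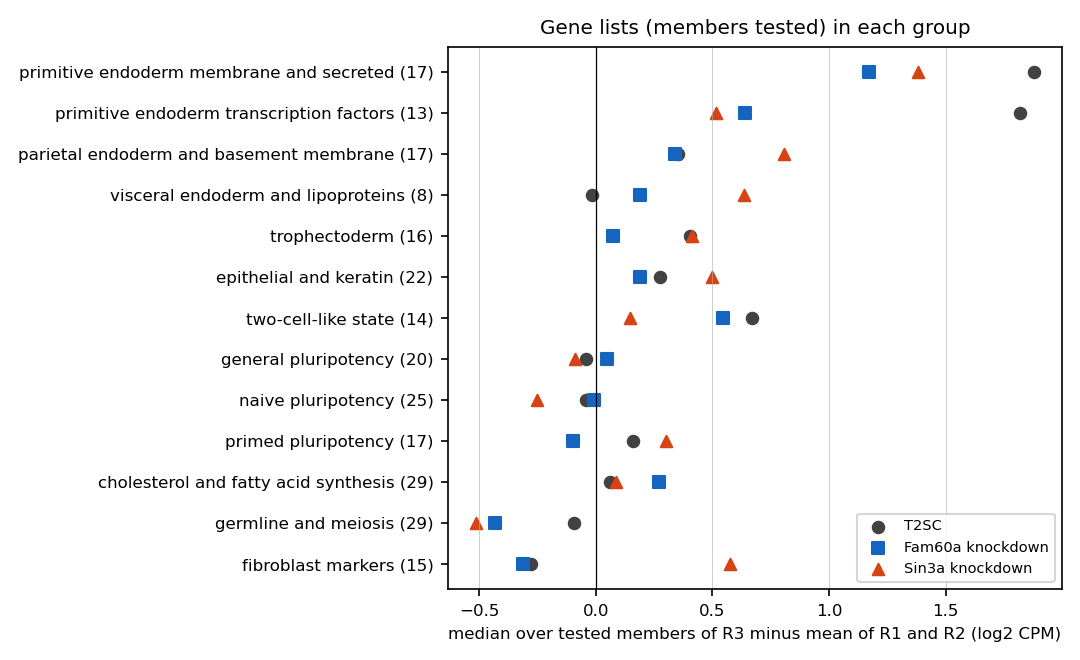
Median over the tested members of each gene list (number in brackets) of R3 minus the mean of R1 and R2, in log2 CPM, with 1 point per group. Both primitive endoderm lists lie to the right of 0 in all 3 groups, up to 1.88 in T2SC, while general pluripotency stays within 0.0881 of 0.

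The largest differences outside these lists, by the naming rule were those of genes of varied function. Myo7a (ENSMUSG00000030761, chromosome 7, 98051060 to 98119524, minus strand), an unconventional myosin of microvilli and sensory hair cells, measured 9.61, 15.8 and 119 CPM in T2SC, 20.8, 20 and 172 CPM in the Fam60a knockdown, and 25.0, 12.1 and 198 CPM in the Sin3a knockdown. Every R3 library was above all of the other 6, and the difference was 3.23 ± 0.22 with 9 libraries and 3.14 ± 0.23 with 8. Hkdc1, a hexokinase, measured 4.4, 6.94 and 64.7 CPM, then 15.7, 11.5 and 68.1 CPM, then 7.78, 4.09 and 112 CPM (3.37 ± 0.34 and 2.88 ± 0.30). Pdzk1, a scaffold of apical membrane transporters, measured 2.28, 1.16 and 13.9 CPM, then 1.81, 2.44 and 13.9 CPM, then 0.915, 1.49 and 66.2 CPM (3.87 ± 0.52 and 2.85 ± 0.27). For both, all R3 libraries were above the other 6. The rule also named Pdzk1ip1, a partner of Pdzk1, Edn3, an endothelin ligand, Dusp8, a phosphatase of MAP kinases, Gucy1a1, a subunit of guanylate cyclase, Ankdd1b, Tmem140 and Serpina3m, with differences between 3.24 and 4.02. The rule asks for a mean of 2 CPM over all 9 libraries, which a gene can reach through R3 alone. In R1 and R2, Gucy1a1 stood at 0.145 to 0.755 CPM, Pdzk1ip1 at 0.186 to 0.906 and Edn3 at 0.163 to 1.51. The size of such differences rests on few reads. Serpina3m has close paralogs, and reads may have been shared among them. Lor, which encodes a protein of the skin barrier, depended on 1 library. It stood at 107 CPM in Sin3a R3 and 0.489 to 3 CPM in the other 8, and its difference was 3.98 with that library and 1.71 without it. Lor did not pass with 9 libraries and the replicate block (edgeR adjusted p = 0.0915).

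Trophectoderm is the other extraembryonic lineage of the early embryo. Of 16 genes tested, 3 were higher and 0 lower with 9 libraries (5 and 0 with 8, and 1 and 0 with 9 and the replicate block). Among all genes 2.12% were higher and 0.491% lower with 9 libraries, and 4.25% and 2.71% with 8. The 3 higher with 9 libraries were Cdx2, a homeobox factor of trophectoderm and gut, and the keratins Krt8 and Krt18. Cdx2 measured 0.652, 0.434 and 4.62 CPM in T2SC, 3.17, 1.92 and 11.5 CPM in the Fam60a knockdown, and 2.90, 1.86 and 19 CPM in the Sin3a knockdown. No library of R1 or R2 reached the R3 values (2.69 ± 0.28 and 2.47 ± 0.33). Gata3, a defining factor of trophectoderm, measured 5.38, 6.79 and 5.36 CPM, then 12.5, 15.9 and 10.1 CPM, then 6.56, 5.94 and 8.12 CPM. R3 was level with R1 in T2SC, the lowest of its group in the Fam60a knockdown and the highest in the Sin3a knockdown. Elf5 and Tpbpa, of the placental lineage, had 0 to 4 and 0 to 1 reads per library.

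The keratins with promoters shown above are also members of the epithelial list. Krt18 measured 23.9, 22.1 and 51.8 CPM in T2SC, 30.7, 25.4 and 47.7 CPM in the Fam60a knockdown, and 22.1, 21.7 and 158 CPM in the Sin3a knockdown. R3 did not overlap R1 and R2, and the difference was 1.66 ± 0.33, or 0.98 ± 0.13 with 8 libraries, and Krt18 did not pass with 9 libraries and the replicate block (edgeR adjusted p = 0.09). Krt8 measured 21.8, 18.6 and 51.4 CPM, then 48.0, 38.1 and 59.1 CPM, then 37.0, 27.1 and 125 CPM (1.28 ± 0.25 and 0.90 ± 0.22), and R3 was highest in each group, but Krt8 did not pass with 9 libraries and the block either (edgeR adjusted p = 0.072). Esrp1, an epithelial splicing regulator, measured 11.4, 14.9 and 26.4 CPM, then 9.37, 10.4 and 27.7 CPM, then 6.10, 5.39 and 25.6 CPM. Its R3 values lay in a narrow band above all others (1.53 ± 0.22 and 1.25 ± 0.18). Of 22 genes tested, 4 were higher and 0 lower with 9 libraries, where 2.12% and 0.491% of all genes were. With 8 libraries 5 and 0 were, where 4.25% and 2.71% of all genes were. With the replicate block 1 was higher and 0 lower with 9 libraries. With 8 libraries and the block 11 were higher and 1 lower, where 8.28% and 8.65% of all genes were. The adhesion gene Cdh1 did not pass with 9 libraries (0.02 ± 0.10).

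Pluripotency genes were read beside the share of all genes that passed. It was 2.61% with 9 libraries, 6.96% with 8 and 16.9% with 8 and the replicate block. In lists of 20 and 25 genes such shares come to few genes, so low counts do not set these lists apart. Of the 20 general pluripotency genes 0 passed in either direction with 9 or with 8 libraries, and their median was -0.04 and 0.02. With 8 libraries and the replicate block 2 were lower and 0 higher. Pou5f1 measured 141, 134 and 133 CPM in T2SC, 134, 122 and 141 CPM in the Fam60a knockdown, and 131, 152 and 316 CPM in the Sin3a knockdown, so that Sin3a R3 alone was set apart. Nanog measured 177, 157 and 160 CPM, then 147, 123 and 121 CPM, then 152, 161 and 95.9 CPM, and its difference was -0.29 ± 0.14, or -0.10 ± 0.08 without Sin3a R3. Sox2 differed by -0.01 ± 0.09 and -0.03 ± 0.08. All 3 genes, which define embryonic stem cells, were detected in every library. Of the 25 genes of naive pluripotency 1 was higher and 0 lower with 9 libraries, 2 and 1 with 8, and 2 and 4 with 8 libraries and the replicate block. Their summed level was 4520, 4420 and 4200 CPM in T2SC, 4150, 4010 and 3910 CPM in the Fam60a knockdown, and 3990, 4230 and 3150 CPM in the Sin3a knockdown, so that R3 had the lowest sum of each group. Pecam1, an adhesion molecule of naive stem cells and of endothelium, was lower with 8 libraries (-0.52 ± 0.10), and Tfap2c, a transcription factor, was higher there (0.55 ± 0.12). Dppa3, a maternal factor also known as Stella, was higher with 9 and with 8 (1.94 ± 0.35 and 1.85 ± 0.38), with 0.815, 1.88 and 3.72 CPM in T2SC, 0.755, 1.15 and 4.74 CPM in the Fam60a knockdown and 0.457, 0.743 and 2.84 CPM in the Sin3a knockdown. R3 was the highest library of each group for it.

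The state of 2-cell-like cells is marked by the Zscan4 and Usp17l families. Zscan4d, which acts on telomeres in that state, measured 25.1, 30.4 and 46.3 CPM in T2SC, 23.7, 22.5 and 41.0 CPM in the Fam60a knockdown, and 17.8, 17.5 and 26.8 CPM in the Sin3a knockdown. R3 was highest in each group, and Zscan4d passed in both fits (0.73 ± 0.13 and 0.79 ± 0.12), but not with 9 libraries and the replicate block (edgeR adjusted p = 0.0523). Of 14 genes tested, 1 was higher and 0 lower with 9 libraries and 4 and 0 with 8, and 12 lay above R1 and R2 in both T2SC and the Fam60a knockdown, where 18.3% of all genes did. Summed over 16 genes, the level was 174, 189 and 286 CPM in T2SC and 161, 163 and 234 CPM in the Fam60a knockdown. In the Sin3a knockdown it was 135, 115 and 134 CPM, so R3 was not the highest there. With the replicate block 0 of the 14 passed with 9 libraries. With 8 libraries and the block 7 were higher and 0 lower, where 8.28% and 8.65% of all genes were. These families consist of near-identical copies, so the division of reads among members is uncertain.

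Genes lower in R3 were fewer than those higher with 9 and with 8 libraries, but not with 8 libraries and the replicate block (1251 lower and 1198 higher). In that fit 148 were lower and 303 higher by at least 2-fold. Against R1 alone 100 were lower and 294 higher by that much, and against R2 alone 240 and 308. The lower count thus depended on which number R3 was set against. Gulp1, an adaptor for the uptake of dead cells, measured 7.98, 8.10 and 3.72 CPM in T2SC, 12.5, 11.7 and 3.16 CPM in the Fam60a knockdown, and 20, 20.8 and 4.87 CPM in the Sin3a knockdown (-1.67 ± 0.24 and -1.51 ± 0.24). Elovl4, which lengthens fatty acids, measured 24.4, 22.1 and 11.6 CPM, then 15.1, 16.6 and 4.59 CPM, then 20.1, 18.4 and 2.44 CPM (-1.67 ± 0.31 and -1.31 ± 0.20). R3 was below R1 and R2 without overlap for both, and Elovl4 did not pass with 9 libraries and the block (edgeR adjusted p = 0.072). The imprinted gene Grb10, a brake on insulin signalling, measured 288, 266 and 223 CPM, then 236, 205 and 153 CPM, then 284, 279 and 181 CPM, and differed by -0.49 ± 0.10 and -0.41 ± 0.08, with R3 lowest in each group and no pass with 9 libraries and the block (edgeR adjusted p = 0.0632). The rule also named Slc16a14, Tmem246, Nxpe4, Tox3, B3gat1, Fndc1, Dpp6, Cd302 and Hfm1, with differences between -1.82 and -1.43. Of these, Tmem246 and Nxpe4 passed with 9 libraries and the block, and all 9 passed with 8 libraries and the block. Of 29 germline and meiosis genes 0 passed with 9 libraries and 0 were higher and 2 lower with 8 (0 and 7 with the replicate block), and 14 lay below R1 and R2 in both T2SC and the Fam60a knockdown, where 21% of all genes did. The share of all genes called lower was 0.491% with 9 libraries, 2.71% with 8 and 8.65% with 8 and the block.

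The enzymes that make sterols and fatty acids showed small differences. Of 29 genes of cholesterol and fatty acid synthesis, 0 passed with 9 libraries and 1 was higher with 8. With 8 libraries and the replicate block 9 were higher and 0 lower, where 8.28% and 8.65% of all genes were. R3 lay above R1 and R2 in both T2SC and the Fam60a knockdown for 15 of the 29 and below in both for 0. Over all genes 18.3% lay above in both and 21% below. The median of the 29 genes was 0.06 in T2SC and 0.27 in the Fam60a knockdown. Lss, lanosterol synthase, measured 166, 162 and 169 CPM, then 131, 132 and 160 CPM, then 132, 136 and 169 CPM, a gap of R3 that was narrow in T2SC. In nuclear oxidative phosphorylation 0 of 29 genes passed with 9 or 8 libraries, where 2.61% and 6.96% of all genes did.

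Markers of other cells that a culture could hold were read in the same way. The summed level of 22 fibroblast markers was 924, 1230 and 889 CPM in T2SC, 818, 1070 and 792 CPM in the Fam60a knockdown and 1030, 1250 and 1450 CPM in the Sin3a knockdown, so R3 was lowest in 2 groups and highest in the third. Of 15 tested, 0 passed with 9 libraries, and 0 were higher and 1 lower with 8, where 4.25% and 2.71% of all genes were. With 8 libraries and the replicate block 0 were higher and 5 lower in R3, with a median of -0.34, and 6 were higher and 0 lower in R2 than in R1, with a median of 0.44. Among all genes 8.28% were higher and 8.65% lower in R3 in that fit, and 8.91% and 3.12% in R2 against R1. Mmp2, a matrix protease, was lower in R3 with 8 libraries (-1.20 ± 0.23). The part of these markers in the other R3 differences was not tested. The fibroblast genes Dcn and Fap had 0 reads in every R3 library and at most 4 and 2 reads in an R1 or R2 library. Counts as low as those of Dcn and Fap do not separate the numbers. Col3a1, also left out by the filter, had 0 to 44 reads in R1 and R2 libraries and 1 to 6 in R3. Postn had 0 to 12 and 0 to 1, so the ranges overlapped for both genes. The sum of 24 endothelial and blood genes was 389 CPM in T2SC R3 against 399 and 450, 439 in Fam60a R3 against 440 and 468, and 340 in Sin3a R3 against 407 and 380. R3 was thus the lowest of each group, but the 16 members tested did not move one way. With 9 libraries 1 was higher and 0 lower, with 8 libraries 2 and 3, and with 8 and the replicate block 2 and 4. In the same order of fits, 2.12% of all genes were higher and 0.491% lower, then 4.25% and 2.71%, then 8.28% and 8.65%. Flt1, a receptor for vascular growth factors, measured 3.1, 5.2 and 7.6 CPM in T2SC, 3.63, 4.23 and 14.2 CPM in the Fam60a knockdown, and 4.12, 3.34 and 22.7 CPM in the Sin3a knockdown. R3 was the highest of each group for Flt1 (1.80 ± 0.32 and 1.40 ± 0.29), which did not pass with 9 libraries and the block (edgeR adjusted p = 0.0582). The cadherin of endothelium, Cdh5, was higher with 8 libraries (1.43 ± 0.27), and the receptors Kdr (-1.07 ± 0.22) and Tek (-1.11 ± 0.14) were lower, as was Pecam1. Ptprc, which marks blood cells, had at most 1 read in an R3 library and at most 2 in an R1 or R2 library.

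The groups other than Sin3a allow R3 to be picked in one set of 3 libraries and read in another that shares none with it. Both sets were among the libraries in which R3 had been seen to stand apart. The shares below are therefore a description, and agreement between the groups may restate that choice. Among 13684 genes averaging 2 CPM or more, 700 were higher in Fam60a R3 than in both Fam60a R1 and R2 and by over 0.5 on the log2 scale from their mean. Of these, 87.6% were above both R1 and R2 in T2SC, against 29.4% of all genes. Of 1664 picked as lower, 63.8% were below in T2SC, against 33.9%. Picked in T2SC and read in the Fam60a knockdown, 76.9% of 953 higher genes were above, against 36.0%, and 83.9% of 721 lower genes were below, against 36.4%. Genes labelled with 8 libraries, a fit that does not hold Sin3a R3, can be read in the Sin3a group as well, although Sin3a R1 and R2 were in that fit. There 76.7% of the 615 higher genes were above R1 and R2 (45% of all genes) and 66.1% of the 392 lower genes were below (47.7% of all). Across the 14465 genes the R3 differences of T2SC and the Fam60a knockdown had a Pearson correlation of 0.586, and those of Sin3a had 0.298 with T2SC and 0.226 with the Fam60a knockdown. Genes are not independent replicates.

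**Figure D4:**
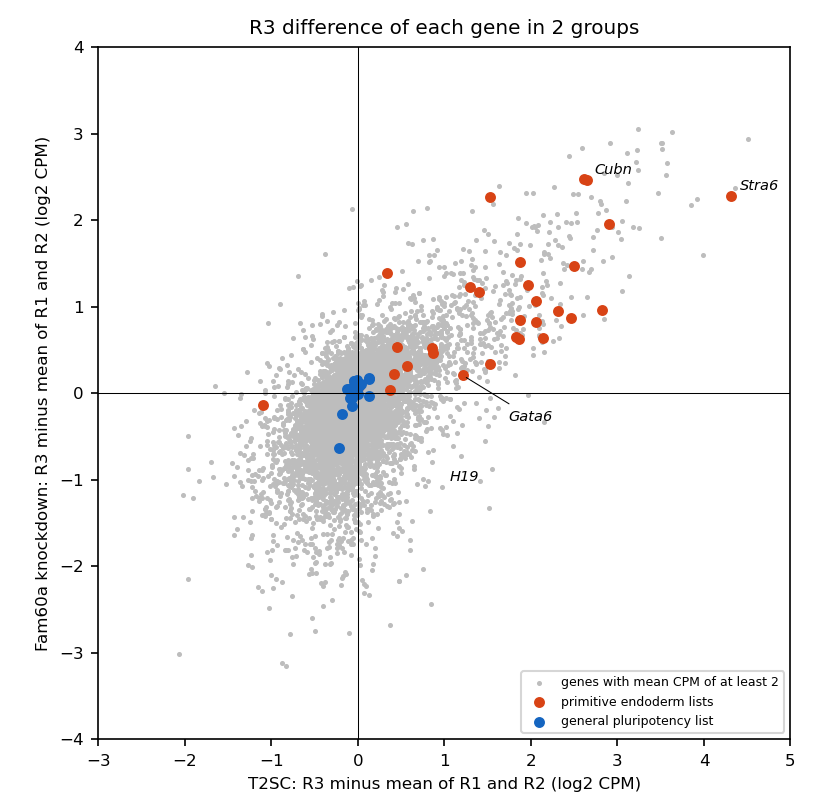
Each point is a gene, with R3 minus the mean of R1 and R2 in T2SC on the x axis and in the Fam60a knockdown on the y axis (both log2 CPM), and colours mark 2 sets of lists. Most primitive endoderm genes lie high on both axes and the general pluripotency genes lie near 0, while Gata6 is high in T2SC and near 0 in the Fam60a knockdown and H19 moves in opposite directions.

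Whether the R3 difference itself depended on the group was tested with an interaction term, a measure the choice of libraries did not use. Each group gave 1 R3 library, so the error of this test came from R1 and R2 alone. A difference between groups cannot be told apart from one between single R3 libraries, and 0 calls do not show equal R3 differences. Between the Fam60a knockdown and T2SC, 0 of 14465 genes passed (edgeR, 810 at an unadjusted p under 0.05, or 5.6%). DESeq2 gave 7, edgeR without a filter on low counts 193, and edgeR without 1 library between 0 and 14. Gata6, with a difference of 1.21 in T2SC and 0.20 in the Fam60a knockdown, had an edgeR adjusted p of 0.222 for this interaction, and Pdgfra one of 0.231. H19, an imprinted long noncoding RNA, had 0.103, the lowest value, which it shared with Dram1, Chac1 and Adgra2. H19 stood at 69.4, 63.5 and 130 CPM in T2SC and 69.0, 55.8 and 29.1 CPM in the Fam60a knockdown, so that R3 was the highest library of one group and the lowest of the other. Between the Sin3a knockdown and T2SC 5515 genes (38.1%) passed, with a more positive R3 difference in the Sin3a knockdown for 2489 and a more negative one for 3026. Sin3a R3 stood apart in its relation to GC content and in depth, as given above. With a GC correction the count was 3758, and the part of depth in it was not tested.

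R1 and R2 were also compared with each other. Since R3 had been singled out for standing apart from both, these values are set beside those of R3 as a description, and a smaller difference between R1 and R2 restates that choice. With 9 libraries 0 genes passed (edgeR, 627 at an unadjusted p under 0.05, 26 with DESeq2), but without Sin3a R3 1740 passed (12%), 1289 higher (8.91%) and 451 lower (3.12%) in R2. On the 6 libraries of R1 and R2 alone 3192 passed. Ankrd16 measured 47.9, 58.9 and 46.8 CPM in R1 and 104, 104 and 88.9 CPM in R2 of T2SC, the Fam60a and the Sin3a knockdown. R2 did not overlap R1, and the difference was 0.95 ± 0.07 with 8 libraries (edgeR adjusted p = 5.03e-05). Lefty2, a secreted inhibitor of Nodal, measured 105, 36.0 and 1.98 CPM in R1 and 72.3, 18.6 and 1.67 CPM in R2, and was lower in R2 in each group (-0.67 ± 0.10, edgeR adjusted p = 0.00217). Genes higher in R2 were long, with a median exon length of 6640.5 bases against 4278 over all genes.

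Set side by side in the 8 libraries, with the replicate number as a factor, each pair of numbers gave calls. R3 against R1 gave 1764 genes past the threshold (12.2%) and R3 against R2 3230 (22.3%), beside 1740 for R2 against R1. They were 1020 higher (7.05%) and 744 lower (5.14%) for the first and 1458 higher (10.1%) and 1772 lower (12.3%) for the second. Differences of at least 2-fold numbered 394, 548 and 138. The SD of the log2 difference over all genes was 0.44 for R3 against R1, 0.482 for R3 against R2 and 0.299 for R2 against R1. For primitive endoderm factors the median of R2 minus R1 was -0.30, with 0 higher and 1 lower, and for the membrane and secreted genes -0.13, with 1 higher and 1 lower.

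**Figure D5:**
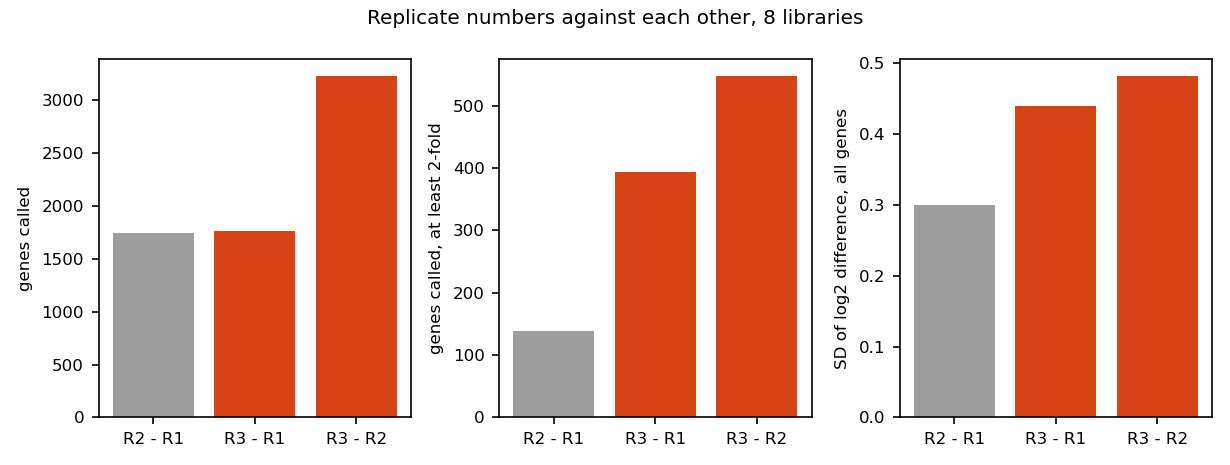
Bars give, for each pair of replicate numbers in the 8 libraries, the genes past the threshold, those past it by at least 2-fold, and the SD of the log2 difference over all genes. R2 against R1 has 1740 genes but only 138 of at least 2-fold, against 394 and 548 for the pairs that include R3.

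Properties that the contrast did not use were compared last. The 306 genes higher with 9 libraries had a median exon GC content of 52.2% and a median exon length of 4321 bases, against 50.2% and 4278 bases over all genes, and the 71 lower genes had 48.6% and 6390 bases. With 8 libraries the medians were 51% and 4358 bases for the higher and 50.7% and 5722 bases for the lower genes. By length class, the median R3 difference ran from 0.03 in the shortest class to -0.06 in the longest in T2SC and from 0.03 to -0.03 in the Fam60a knockdown. In the Sin3a knockdown it ran from 0.19 to -0.32. The part of exon length in the lower genes was not tested. By chromosome, the median difference lay between -0.033 and 0.0118 in T2SC and between 0.00279 and 0.049 in the Fam60a knockdown, where a level 1.5-fold as high would give 0.585. In the Sin3a knockdown it lay between -0.717 (chromosome X) and 0.252 (chromosome 7), and between -0.278 (chromosome X) and 0.153 (chromosome 19) after the GC correction.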

How the data were processed

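Per the labels' protocols, total RNA of cultured E14 cells was made into stranded TruSeq libraries and read as single ends of 50 bases. The authors deposited 1 table of read counts per gene for each library. Per the submitters' processing notes, STAR 2.4.0j, Picard and featureCounts of Subread were used, and duplicates were removed before counting, per the file headers, which caps the counts of highly expressed genes. The genome build and annotation behind the counts are not given in the sources used here. Symbols, positions, exon length and GC content came from GENCODE M21 (GRCm38), matched by gene ID for 32937 of 37990 genes, which hold 99.351 to 99.464% of the reads.

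Groups were read from the titles. The filter filterByExpr was applied with the 3 groups, and edgeR 4.0.16 (R 4.3.3, TMM, robust quasi-likelihood F-tests) fitted group and R3 over 14465 genes, with Benjamini-Hochberg adjustment at 0.05. R2 against R1 and the group by R3 interactions were fitted in the same way. Differences within a group are log2 CPM with a prior count of 2. In libraries of these depths 3 reads were 0.385 to 1.22 CPM, and these floors cover counting error only. The SE was derived from the coefficient and its F statistic. The fit was tested on simulated data.

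Deviations from the group means correlated with r of 0.178 to 0.622 between same-numbered libraries of different groups (9 of 9 pairs) and -0.448 to 0.113 otherwise, across genes, so the numbers were taken to pair the samples. Counts of any 2 libraries were identical for at most 1.5% of genes, so none was a copy.

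Named genes are the 12 largest differences per direction among protein-coding genes past the threshold with a mean of at least 2 CPM and R3 outside R1 and R2 in all 3 groups, up to 3 per list and direction, a fixed set of 23, the 5 per direction of R2 against R1, and 3 per interaction. Members and the 38 lists (891 entries, 19 without a match) were chosen with earlier results of these data known. Genes named for R2 against R1 come from the fit of 8 libraries, and that use was decided after the data were seen. Genes used as examples in the marker, promoter and sterol paragraphs, and Hnf4a, Cubn, Pecam1 and Tfap2c, were also picked with their values known. Alternatives were other scaling (DESeq2 1.42.0 size factors), tools (DESeq2, limma 3.58.1 voom with library weights), no filter, a GC correction, the replicate block and leaving out each library. Some genes the rule names are not reported here.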

Additional observations from a re-analysis of the deposited data

Results flagged for a closer look

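The R3 difference of 5515 genes differed between the Sin3a knockdown and T2SC by the interaction test (edgeR adjusted p under 0.05). In Sin3a R3 the counts went with GC content, as described above, and the part of GC content in this count was not tested beyond the correction, which left 3758 genes.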

How the results depend on the processing

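The counts of genes depended on the settings. Of the named genes, Ninl and Crocc, picked for the Sin3a interaction, changed sign with a call. Ninl was 0.05 as reported, -0.564 with limma-voom library weights, -0.593 without Sin3a R3 (up to 0.398, without Fam60a R3, when 1 library was left out) and -0.588 without it and with the replicate block, and Crocc was 0.719 as reported and -0.396 in the last of these fits. For R3 against R1 and R2, the genes higher and lower were 464 and 112 with no filter, 467 and 153 with a GC correction, 197 and 27 with the replicate block, 386 and 113 with the GC correction and the replicate block, 730 and 604 with limma-voom library weights, and 682 and 403 with DESeq2. Added after seeing the data, R3 against R1 only gave 5 and 0, R3 against R2 only 84 and 9, and 8 libraries with the replicate block 1198 and 1251. Without 1 library the counts ran from 126 to 615 and from 6 to 392. R2 against R1 gave 26 with DESeq2, 0 to 1740 without 1 library, and 3192 on the 6 libraries alone. The Fam60a interaction gave 193 with no filter, 7 with DESeq2 and 0 to 14 without 1 library, and the Sin3a interaction 3379 with DESeq2. Of the genes picked in one group of 3 libraries, the shares read in the other were 93.1%, 67.1% and 90.2% (higher and lower in the Fam60a knockdown, higher in T2SC) with a minimum difference of 1, and 94.5%, 70.8%, 89.3% and 89.2% (with lower in T2SC last) at a mean of at least 10 CPM. The cause of these shifts was not tested. Of 57 named genes past the threshold, 22 (without T2SC R1) to 54 (without Sin3a R3) stayed past it without 1 library, 33 with the replicate block and 54 with 8 libraries and the block. Of the genes and lists, 1322 and 593 values moved by less than the spread between groups, and 17 and 15 by more. That spread is the SD of the 3 group differences and includes Sin3a R3. Over all genes the Sin3a differences had an SD of 1.15, against 0.455 in T2SC and 0.493 in the Fam60a knockdown. The spread is therefore a wide measure, and these counts do not show that the values are stable. The depth of Sin3a R3, 2607872 reads, limits all statements on low genes in that library.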
